A study of Mus musculus with 8 samples.

Results

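The expression of germline and meiosis genes was followed in mouse pre-iPSCs, a partly reprogrammed state that has not become pluripotent. The set lists 44 genes of germ cell identity, the piRNA pathway and meiosis. They were listed by name, but with earlier results of these data known, so the shares of members called are no independent test. Of the 44 genes, 40 had a probe set that carried their symbol alone, out of 18193 genes named in this way, and each was read at its brightest probe set. Nanos2, Nanos3, Tdrd6 and Rpl10l were not analysed here. All 8 arrays come from pre-iPSCs in embryonic stem cell medium that received siRNA for 3 days. The control group (n = 3) received siRNA to luciferase, the 3XHMT group (n = 2) siRNAs to Ehmt1, Ehmt2 and Setdb1 together, and the Cbx3 group (n = 3) siRNA to Cbx3, which encodes HP1 gamma. The labels name neither the pre-iPSC line nor what was repeated between biological replicates, so the tests measure the spread between these arrays, which may be technical.

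Germline genes are switched on in the few cells that become sperm and eggs and are kept silent elsewhere. Many have promoters rich in CpG that are shut by DNA methylation in somatic cells, and in embryonic stem cells Setdb1 is known to hold a share of them silent. A repressor complex built around E2F6, MGA and MAX, which bind E2F sites and E-boxes, also represses germline genes, and it has been isolated together with HP1 gamma and the methyltransferases encoded by Ehmt1 and Ehmt2. The targets of the siRNAs therefore belong to machinery known from other cells to act on these promoters, and the comparisons ask whether the genes' transcripts change when it is lowered.

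Promoter windows from RefSeq (assembly GRCm38.p6, 250 bases before to 50 after the annotated start, written along the gene's strand) are shown for some of the members discussed below. Dazl, a classic germ cell gene with low values in every group, is shown as well. The windows of Tdrd7, which is also discussed below, are not printed. The E-box CACGTG and the E2F core TCCCGC or its reverse complement GCGGGA are in capitals wherever a script found them, and the motifs did not overlap in these windows. A window without capitals holds neither string.
Dmrtc2, chr7:24869807-24870106, plus strand: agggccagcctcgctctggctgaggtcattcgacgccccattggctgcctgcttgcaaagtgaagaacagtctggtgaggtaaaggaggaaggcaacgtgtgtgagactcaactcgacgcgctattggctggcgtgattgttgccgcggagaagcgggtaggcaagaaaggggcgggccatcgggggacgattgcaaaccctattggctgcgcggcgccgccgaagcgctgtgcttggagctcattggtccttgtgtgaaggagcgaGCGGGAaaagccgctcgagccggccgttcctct
Tex19.1, chr11:121145893-121146192, plus strand: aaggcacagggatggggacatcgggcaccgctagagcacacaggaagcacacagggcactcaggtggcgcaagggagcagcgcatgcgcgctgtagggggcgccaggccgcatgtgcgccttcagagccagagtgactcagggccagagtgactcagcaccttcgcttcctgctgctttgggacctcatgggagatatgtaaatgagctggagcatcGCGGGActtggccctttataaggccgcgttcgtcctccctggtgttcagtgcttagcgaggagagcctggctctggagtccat
Mageb16, chrX:79671386-79671685, minus strand: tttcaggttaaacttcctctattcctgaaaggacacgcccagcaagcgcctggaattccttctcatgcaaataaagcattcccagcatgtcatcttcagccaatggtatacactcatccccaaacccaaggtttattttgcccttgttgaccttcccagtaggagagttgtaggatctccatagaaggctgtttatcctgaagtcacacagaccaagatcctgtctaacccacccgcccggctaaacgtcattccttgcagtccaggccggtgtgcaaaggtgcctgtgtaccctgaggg
Slc25a31, chr3:40708621-40708920, plus strand: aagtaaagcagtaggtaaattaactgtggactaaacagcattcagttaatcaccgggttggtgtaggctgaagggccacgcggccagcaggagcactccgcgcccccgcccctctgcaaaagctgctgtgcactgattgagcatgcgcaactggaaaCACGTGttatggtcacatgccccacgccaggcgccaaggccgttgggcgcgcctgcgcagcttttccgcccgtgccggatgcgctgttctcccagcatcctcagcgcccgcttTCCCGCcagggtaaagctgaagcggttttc
Stag3, chr5:138280259-138280558, plus strand: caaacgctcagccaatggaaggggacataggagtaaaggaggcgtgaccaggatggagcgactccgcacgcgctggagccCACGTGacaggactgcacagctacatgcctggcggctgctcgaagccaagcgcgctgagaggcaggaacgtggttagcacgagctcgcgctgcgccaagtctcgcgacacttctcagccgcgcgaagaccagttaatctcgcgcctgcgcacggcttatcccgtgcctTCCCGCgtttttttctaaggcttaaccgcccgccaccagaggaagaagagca
Dazl, chr17:50293571-50293870, minus strand: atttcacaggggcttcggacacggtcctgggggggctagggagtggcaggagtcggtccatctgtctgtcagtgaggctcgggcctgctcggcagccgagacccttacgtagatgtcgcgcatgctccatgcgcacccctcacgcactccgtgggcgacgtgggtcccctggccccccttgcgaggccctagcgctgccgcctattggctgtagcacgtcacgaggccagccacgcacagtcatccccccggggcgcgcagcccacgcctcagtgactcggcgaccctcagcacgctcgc
The E2F core began 18 bases after the start in Dmrtc2, 33 bases before it in Tex19.1, 21 bases after it in Slc25a31 and 2 bases before it in Stag3. The E-box lay 93 bases before the start in Slc25a31 and 170 bases before it in Stag3.

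The promoters of the set resembled each other in ways its choice did not use. Of the 44 listed genes, 37 had a window in the table, some with several starts, which gave 44 windows. Their median ratio of observed to expected CpG was 0.70, against 0.38 over all 32851 windows, and 63.6% of the windows reached a ratio of 0.6, against 35.8% of all. An E-box stood in at least 1 window of 15 genes (40.5%), while 8.09% of all 27025 genes held it. The E2F core stood in 17 genes (45.9%), against 22.05% of all, and both strings in 9 (24.3%), against 2.65%. Within windows at a CpG ratio of 0.6 or more, the E-box was found in 54.2% of 24 germline genes and 11.9% of 10366 genes, and the E2F core in 62.5% and 44.9%. These are shares of matching letters, without a test, and a match is not evidence of binding.

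**Figure D1:**
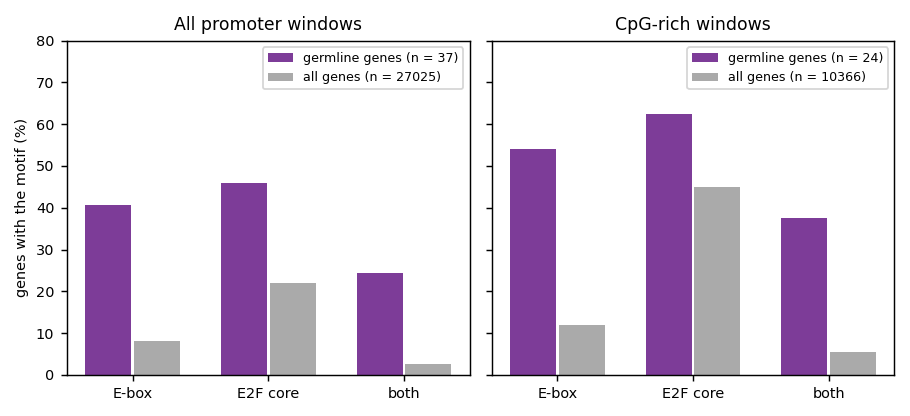
Share of genes (percent, vertical axis) whose promoter window holds the E-box, the E2F core or both, for germline genes (purple) and all genes of the RefSeq promoter table (grey), over all windows (left) and over windows with a CpG ratio of 0.6 or more (right). The E-box bars differ most: 40.5% against 8.09% on the left and 54.2% against 11.9% on the right.

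Before the members, the libraries were checked. Cbx3 signal stood at 42.8% of control in the Cbx3 arrays at its brightest probe set, which is shared with a pseudogene (limma adjusted p = 0.0454 over all probe sets). In the 3XHMT arrays Setdb1, Ehmt2 and Ehmt1 stood at 63.2%, 66.8% and 79.6% of control at their brightest probe sets, none past the threshold (adjusted p = 0.557 for Setdb1 and 1.00 for both others). The arrays also part into 3 sets by the 18S ribosomal RNA control probe set, called tiers here: a low tier (9.98 to 10.2 on the log2 scale) of control 3, 3XHMT 2 and Cbx3 3, a middle tier (11.2 and 11.5) of control 1 and Cbx3 1, and a high tier (12.6 to 12.8) of the remaining arrays. What the tiers stand for is not given in the labels. Values with the tier as a block are given beside the unblocked ones. For Cbx3 in Cbx3 arrays, the blocked limma fit over all probe sets gave an adjusted p of 0.00313 at the shared probe set. In 3XHMT arrays it gave 0.0521 for Setdb1, 0.294 for Ehmt2 and 0.217 for Ehmt1. The pluripotency marker Pou5f1 was bright in every group. Other pluripotency markers varied: in control, Tdgf1 and Klf4 were also bright (means of 11.2 and 11.0). Lin28a, Tcl1, Nanog and Dppa4 were dim there (means of 4.58, 4.58, 5.13 and 5.52). The 12 fibroblast markers had mean levels of 5.91 to 5.99 in control, 5.92 to 6.03 in 3XHMT and 5.91 to 6.11 in Cbx3 arrays on the log2 scale. Fn1 among them was bright (11.5 to 12.7), and Dcn had control and 3XHMT means of 6.24 and 7.25 (limma adjusted p = 0.189; 0.0470 when blocked by tier). At an unadjusted p under 0.05 by limma, 1 fibroblast marker (Dcn) was higher and 2 were lower in 3XHMT than in control arrays. The lower ones were Twist1 (-0.73, adjusted p = 0.708; 0.0613 when blocked by tier) and Postn (-0.29, adjusted p = 0.866; 0.308 when blocked). The 7 macrophage and blood markers had mean levels of 5.5 to 5.66, 5.53 to 5.54 and 5.44 to 5.80 in the same order, from Ptprc (3.25 to 3.47) to Cd14 (6.97 to 7.74) and Cd68 (6.97 to 8.47). The part of other cell types in the results was not tested.

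In control cells, 39 of the 40 germline genes lay below the median of all genes (7.09 on the log2 scale). The median of the set was 4.50, with 27 members in the lowest 25% of genes and 11 in the lowest 10%. On these arrays such values cannot be told from the absence of a transcript, since detection calls were not used here. Probe sets differ in how strongly they bind, so these positions describe signal and give no order of transcript amounts. Among the defining germ cell genes, Ddx4, the Vasa helicase, lay at 3.03, 3.2 and 3.07 in control, 3.04 and 2.78 in 3XHMT, and 3.01, 3.11 and 2.95 in Cbx3 arrays. Dazl, an RNA-binding translation regulator, lay at 3.88, 4.20 and 4.25 in control, 4.19 and 4.26 in 3XHMT, and 4.16, 4.30 and 4.23 in Cbx3 arrays. Both genes were low on every array, and the groups overlapped at these probe sets. A dimmer Dazl probe set stood at 2.91, 3.11 and 3.09 in control and at 3.23 and 3.11 in 3XHMT arrays, which overlapped. It stood at 3.32, 3.40 and 3.25 in Cbx3 arrays, without overlap with control (difference 0.29).

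Syce2, which encodes a protein of the central element of the synaptonemal complex, was the exception. It stood at 11.49, 11.44 and 11.32 in control, 11.26 and 11.55 in 3XHMT, and 11.30, 11.60 and 11.49 in Cbx3 arrays, brighter than 95% of genes in control. The 3 groups overlapped, and the differences from control were -0.01 ± 0.14 (SE) in 3XHMT and 0.05 ± 0.13 in Cbx3 cells (limma adjusted p = 1.00 and 0.988). The other proteins of that complex, Sycp1, Sycp2, Sycp3, Syce1 and Tex12, had control means between 2.96 and 4.48. Sohlh2, a basic helix-loop-helix factor of early germ cells, lay between 6.35 and 6.80 in control, at 6.90 and 6.33 in 3XHMT and between 6.29 and 6.57 in Cbx3 arrays, and the groups overlapped.

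**Figure D2:**
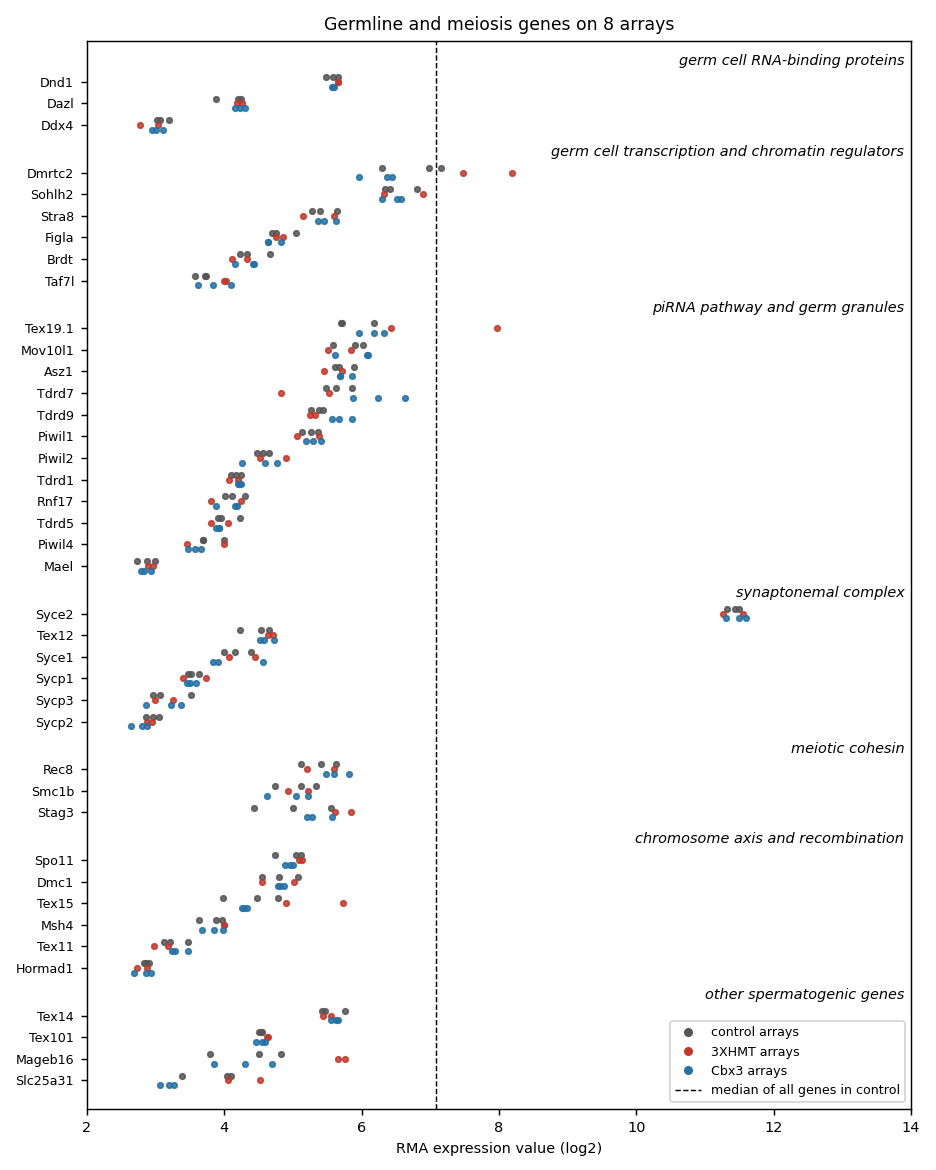
RMA expression value (log2, horizontal axis) of each of the 40 measured germline genes (rows, grouped by role) on each of the 8 arrays, with control in grey, 3XHMT in red and Cbx3 in blue. The dashed line is the median of all genes in control (7.09): Syce2 lies to its right on all arrays, Dmrtc2 crosses it on 3 arrays and Tex19.1 on 1.

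Over all 40 germline genes, most of them dim, the differences from control centred near 0 with either siRNA, and the members that stood apart from control in 3XHMT cells were all higher. Against control, 20 members were higher and 20 lower in 3XHMT cells, with a median difference of 0.00 on the log2 scale, against 0.01 for all genes. In Cbx3 cells the tally was again 20 higher and 20 lower, with a median of -0.01 against 0.01 for all genes. The comparisons share the control arrays. No member passed an adjusted p of 0.05 in either (0 of 40; limma called 0.231% of all genes in 3XHMT, 0.203% higher and 0.0275% lower, and 0.445% in Cbx3 cells, 0.253% higher and 0.192% lower). At an unadjusted p under 0.05 there were 5 members, all higher, in 3XHMT cells (12.5%, against 5.27% of all genes) and 3, with 2 higher and 1 lower, in Cbx3 cells (7.50%, against 9.56%). Most members were measured closely enough to bound a change of signal: the 95% interval of the difference excluded a 2-fold rise for 35 of 40 in 3XHMT and 38 of 40 in Cbx3 cells, although low signal understates changes of transcript. Over all 18193 genes it did so for 17392 and 17362. The exceptions among the members were Dmrtc2, Tex19.1, Stag3, Tex15 and Mageb16 in 3XHMT cells, and Tdrd7 and Tex19.1 in Cbx3 cells.

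**Figure D3:**
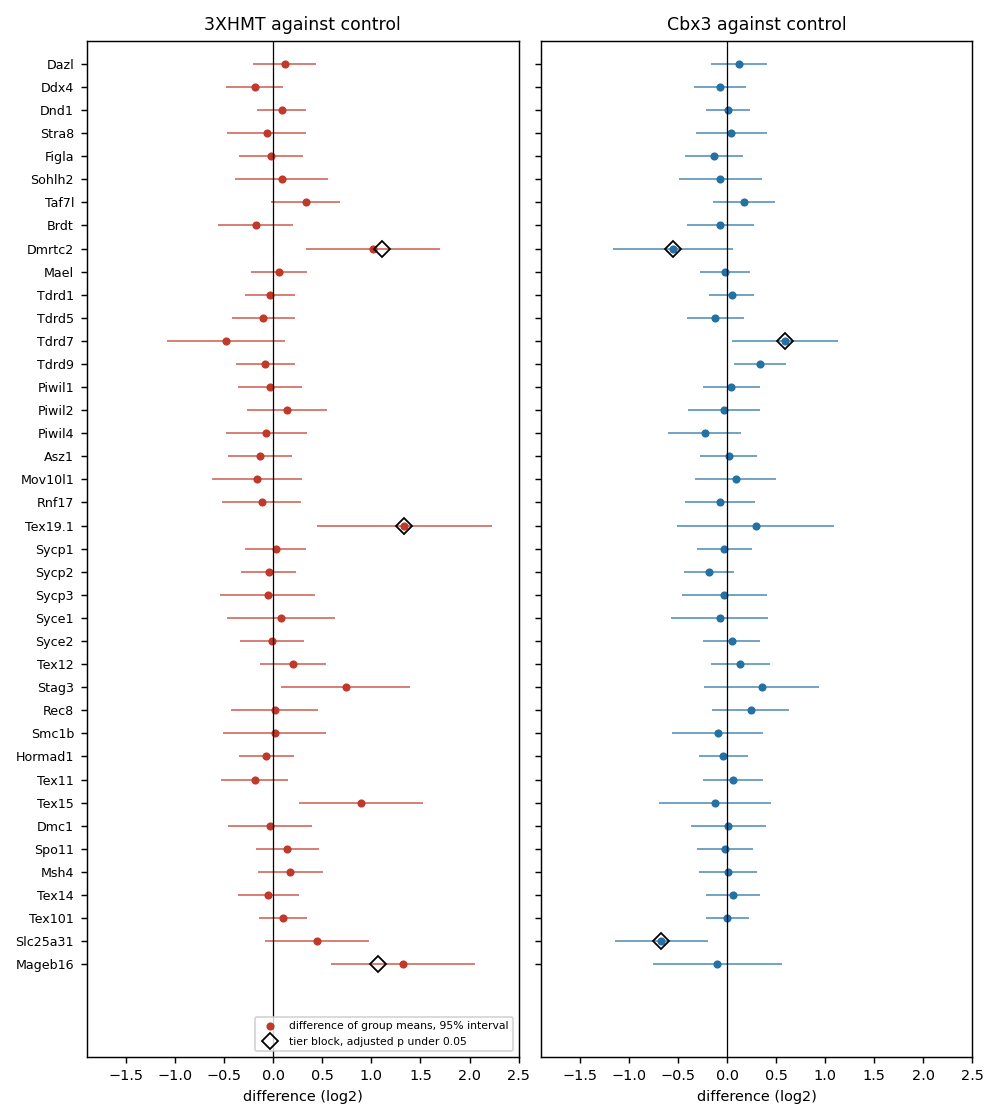
Difference from control (log2, horizontal axis) of each germline gene in 3XHMT (left) and Cbx3 cells (right), as points with 95% intervals from limma; open diamonds mark members past an adjusted p of 0.05 when blocked by tier, at the blocked difference. Most intervals lie around 0, and diamonds fall on Dmrtc2, Tex19.1 and Mageb16 on the left and on Dmrtc2, Tdrd7 and Slc25a31 on the right.

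The spread of the members across the 8 arrays was close to that of all genes. The range from the lowest to the highest array was over 1 on the log2 scale for 7 members (17.5%, against 15.9% of all genes): Tex19.1, Dmrtc2, Mageb16, Tdrd7, Tex15, Slc25a31 and Stag3. The median range was 0.50, against 0.56 for all genes. The highest of a member's 8 values fell on control 2 for 10 members, on 3XHMT 1 for 9 and on Cbx3 2 for 8, the 3 arrays of the tier with the most 18S signal. The lowest fell on 3XHMT 2 for 12 members and on control 1 for 9.

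With the methyltransferases targeted, 3 members rose once the tier was a block, and 0 fell (7.50% of members, where that fit called 0.868% of all genes higher and 1.76% in either direction). They were Dmrtc2, Tex19.1 and Mageb16. Dmrtc2 encodes a DM-domain transcription factor needed in meiotic prophase of spermatocytes. It stood at 6.98, 7.15 and 6.30 in control and at 8.19 and 7.47 in 3XHMT arrays. Both 3XHMT arrays lay above all control arrays, by 1.02 ± 0.30 (SE) on the log2 scale or 2.03-fold (limma adjusted p = 0.484; blocked by tier, 1.11 ± 0.13 and 0.00507). Within the tiers it was higher by 1.17 and 1.04.

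Mageb16, a member of the X-linked melanoma antigen family, stood at 3.79, 4.51 and 4.83 in control and at 5.65 and 5.76 in 3XHMT arrays. The groups did not overlap, and the difference of 1.33 ± 0.32 (SE), 2.51-fold, had the lowest unadjusted p of the set against control (0.00297; limma adjusted p = 0.310). Blocked by tier it was 1.07 ± 0.16 (adjusted p = 0.0157), and within the tiers 0.93 and 1.14. Tex19.1, which is needed for spermatogenesis, helps restrain retrotransposons and is also active in pluripotent cells, stood at 5.70, 6.19 and 5.71 in control and at 7.98 and 6.42 in 3XHMT arrays. Both 3XHMT arrays were above control, 3XHMT 1 far more than 3XHMT 2, and the difference was 1.33 ± 0.39 (SE) or 2.52-fold (limma adjusted p = 0.484; 0.0470 when blocked by tier). Within the tiers it was 1.79 in the tier of 3XHMT 1 and 0.71 in that of 3XHMT 2.

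The blocked calls rest on few arrays. Control 1 and Cbx3 1 alone make up the middle tier, so leaving out either gave the same blocked fit. Leaving out a 3XHMT array left 1 array in that group, and for Cbx3 against control both such fits were the same. The 8 fits are therefore not 8 separate checks. With the tier as a block, leaving out 1 array at a time kept Dmrtc2 past the threshold in 7 of 8 fits, the exception being control 3 (limma adjusted p = 0.0597). Mageb16 was kept in 5 and lost without control 2, 3XHMT 1 or 3XHMT 2 (adjusted p up to 0.125). Tex19.1 was kept in 2 and lost without any control array, 3XHMT 1, Cbx3 1 or Cbx3 3 (adjusted p up to 0.255), with differences from 0.73 without 3XHMT 1 to 1.94 without 3XHMT 2. Without a block, leaving out 3XHMT 2 brought Tex19.1 past the threshold (2.11, adjusted p = 0.0488).

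Stag3, Tex15 and Taf7l were the further members with the lowest p in 3XHMT cells. Stag3, a cohesin subunit of meiotic chromosomes, stood at 5.56, 5.0 and 4.43 in control and at 5.85 and 5.62 in 3XHMT arrays, with control 1 close to the 3XHMT arrays. The difference was 0.74 ± 0.29 (SE; limma adjusted p = 0.844; 0.101 when blocked by tier, and 0.00997 with it once control 1 or Cbx3 1 was left out). Tex15, which acts in meiotic break repair and in transposon silencing, stood at 3.98, 4.78 and 4.48 in control and at 5.73 and 4.89 in 3XHMT arrays. Its difference was 0.89 ± 0.28 (adjusted p = 0.549; 0.148 with the block). Taf7l, an X-linked relative of the general transcription factor subunit Taf7, stood at 3.74, 3.72 and 3.57 against 3.99 and 4.03, a difference of 0.33 ± 0.15 (adjusted p = 1.00; 0.453 with the block). In Cbx3 arrays Stag3 stood at 5.28, 5.56 and 5.21 and Taf7l at 3.62, 4.10 and 3.83, each overlapping control. In Stag3, Tex15 and Taf7l, both 3XHMT arrays lay above every control array, as was so for 9 members in all (22.5%, against 9.28% of all genes), while 0 members lay wholly below control (against 7.10%). Among the 9, Dnd1, Tex101 and Msh4 were higher by only 0.09, 0.10 and 0.17.

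Pluripotency markers moved in the same arrays. Of 15 such genes, 14 had more signal in 3XHMT arrays than in control and 3 passed (Nanog, Zfp42 and Dppa4), and the mean level of the list was 8.18 to 8.64 in control, 9.08 to 9.46 in 3XHMT and 8.29 to 8.65 in Cbx3 arrays on the log2 scale. In Cbx3 cells 8 were higher and 7 lower, and Nanog passed. Limma called 0.231% of all genes in 3XHMT and 0.445% in Cbx3 cells without a block, and 1.76% and 6.59% with the tier block. Blocked by tier, 5 of the markers passed in 3XHMT cells, all higher, and 3 in Cbx3 cells: Nanog higher, and Fgf4 and Nr0b1 lower, the latter at -2.93 ± 0.50 (SE; limma adjusted p = 0.0601, and 8.88e-05 blocked). The part of this shift in the rise of Dmrtc2, Mageb16 and Tex19.1 was not tested. Markers of gonad somatic cells, 10 genes, had means of 5.80 to 5.94 in control, 5.83 to 6.08 in 3XHMT and 5.86 to 6.05 in Cbx3 arrays. Of the germ cell markers Prdm1, Tfap2c, Kit, Dppa3, Prdm14, Dazl and Ddx4, 3 had more and 4 less signal in 3XHMT arrays than in control, and 0 passed with or without the block. Only Dppa3 did not overlap control there (0.34 ± 0.18 (SE), higher), or 14.3% of these markers against 16.4% of all genes. In Cbx3 arrays 4 had more and 3 less signal, and 0 passed in either fit. Only Tfap2c did not overlap control there (0.81 ± 0.26, higher), or 14.3% against 14.3% of all genes.

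With Cbx3 targeted, the share of members called was near that of all genes. Blocked by tier, where the tiers coincide with the replicate numbers of these groups, 1 member rose and 2 fell by limma. That is 7.50% of members, near the 6.59% of all genes called in that fit (3.09% higher and 3.5% lower). Tdrd7, a tudor-domain protein of germ granules that is also used in the lens, stood at 5.49, 5.63 and 5.86 in control and at 5.88, 6.25 and 6.63 in Cbx3 arrays. The groups did not overlap, though Cbx3 1 lay just above control 3, and the difference was 0.59 ± 0.23 (SE), 1.51-fold (limma adjusted p = 0.451; 0.0215 with the block). Its dimmer probe set, with a control mean of 3.91, differed by -0.11 (adjusted p = 0.985), so the rise stands on 1 of its 2 probe sets.

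Slc25a31, the germ cell ADP/ATP carrier of mitochondria, stood at 4.04, 3.39 and 4.10 in control and at 3.06, 3.19 and 3.27 in Cbx3 arrays. All Cbx3 arrays lay below control, with a difference of -0.67 ± 0.21 (SE) on the log2 scale, or a 1.59-fold decrease (by limma, adjusted p = 0.280 and, blocked by tier, 0.0292). Its control mean lies in the lowest 10% of genes. Dmrtc2, at 6.98, 7.15 and 6.30 in control, stood at 6.45, 6.38 and 5.97 in Cbx3 arrays. The groups overlapped through control 3, but each Cbx3 array lay below the control array of its tier, with differences of -0.53, -0.78 and -0.33 and a mean of -0.55 ± 0.27 (SE; limma adjusted p = 0.6; 0.0198 with the block). With 1 array left out under the block, Tdrd7 and Slc25a31 each passed in 4 of 8 fits and Dmrtc2 in 3 (adjusted p up to 0.118, 0.179 and 0.107). Tdrd7 was lost without control 2 or 3 or Cbx3 2 or 3, Slc25a31 without control 1 or 3 or Cbx3 1 or 3, and Dmrtc2 without any control array, Cbx3 1 or Cbx3 2. Among these fits, those without control 1 and without Cbx3 1 were the same, as were those without either 3XHMT array.

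The other members with the lowest p in Cbx3 cells did not pass in either fit. Tdrd9, a tudor-domain helicase of the piRNA pathway, stood at 5.38, 5.44 and 5.27 in control and at 5.67, 5.57 and 5.87 in Cbx3 arrays, without overlap (difference 0.34 ± 0.12 (SE); limma adjusted p = 0.354; 0.121 with the block). Rec8, the meiotic kleisin of cohesin, stood at 5.11, 5.63 and 5.41 against 5.48, 5.81 and 5.60, with overlap (0.24 ± 0.17; adjusted p = 0.829; 0.211 with the block). Sycp2, of the lateral element, stood at 3.05, 2.96 and 2.86 against 2.80, 2.65 and 2.88, with overlap (-0.18 ± 0.11; adjusted p = 0.740; 0.397 with the block). In 3XHMT arrays Tdrd9 stood at 5.25 and 5.32, Rec8 at 5.60 and 5.21 and Sycp2 at 2.95 and 2.88. Tdrd9 differed between 3XHMT and Cbx3 by -0.42 ± 0.13 (limma adjusted p = 0.209; 0.0855 with the block). In all, 4 members did not overlap between Cbx3 and control arrays (10%, against 14.3% of all genes), 2 higher (against 7.52%) and 2 lower (against 6.78%).

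The knockdowns were then set against each other, which tests their difference directly. Dmrtc2 alone passed without a block (1 of 40, or 2.5%, where limma called 1.51% of all genes, 0.808% higher and 0.704% lower). Its 3XHMT arrays (8.19 and 7.47) lay above all Cbx3 arrays (6.45, 6.38 and 5.97), by 1.57 ± 0.30 (SE) on the log2 scale or 2.96-fold (adjusted p = 0.0471). This call was lost when any array other than control 3 was left out (adjusted p of 0.0581 to 0.242), with differences of 1.21 to 1.92. Mageb16 and Slc25a31 (adjusted p = 0.0832 and 0.0641) passed without control 1 (0.0429) and without control 2 (0.0326) in turn.

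With the tier as a block 6 members passed, 5 higher and 1 lower in 3XHMT than in Cbx3 cells (15%, where that fit called 9.12% of all genes, 4.69% higher and 4.43% lower). Arrays did not overlap for 10 members that were higher (against 13.2% of all genes) and 3 that were lower (against 13.5%). Dmrtc2 was higher by 1.65 ± 0.13 (limma adjusted p = 0.000249), Mageb16 by 1.17 ± 0.16 (0.00291) and Slc25a31 by 1.14 ± 0.17 (0.00419). Tdrd7 was lower, at -1.21 ± 0.14, at its brighter probe set (0.00138). These 4 members passed in every fit that left out 1 control or Cbx3 array under the block, where control 1 and Cbx3 1 gave the same fit. Tex15 (0.92 ± 0.22, adjusted p = 0.0328) and Tex19.1 (1.04 ± 0.27, adjusted p = 0.0440) passed in 3 of 8 each, and without 3XHMT 1 they differed by 0.57 and 0.44 (adjusted p = 0.211 and 0.238).

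Tex15 stood at 4.33, 4.27 and 4.28 in Cbx3 arrays, within the range of control, and Tex19.1 at 6.32, 6.19 and 5.97, overlapping it. The order of the groups differed between these genes. For Mageb16, the Cbx3 arrays, at 3.85, 4.69 and 4.31, lay within the range of control, and only the 3XHMT arrays stood apart. Slc25a31 was at 4.05 and 4.52 in 3XHMT arrays, which overlapped control, and the Cbx3 arrays stood apart. For Dmrtc2, the 3XHMT arrays lay above control, while Cbx3 1 and Cbx3 2 lay within its range and Cbx3 3 below it. Tdrd7 had the opposite order, with 3XHMT arrays at 4.83 and 5.52, of which the first lay below every control array and the second within their range (difference from control -0.48 ± 0.26 (SE), limma adjusted p = 1.00; 0.0760 with the block).

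**Figure D4:**
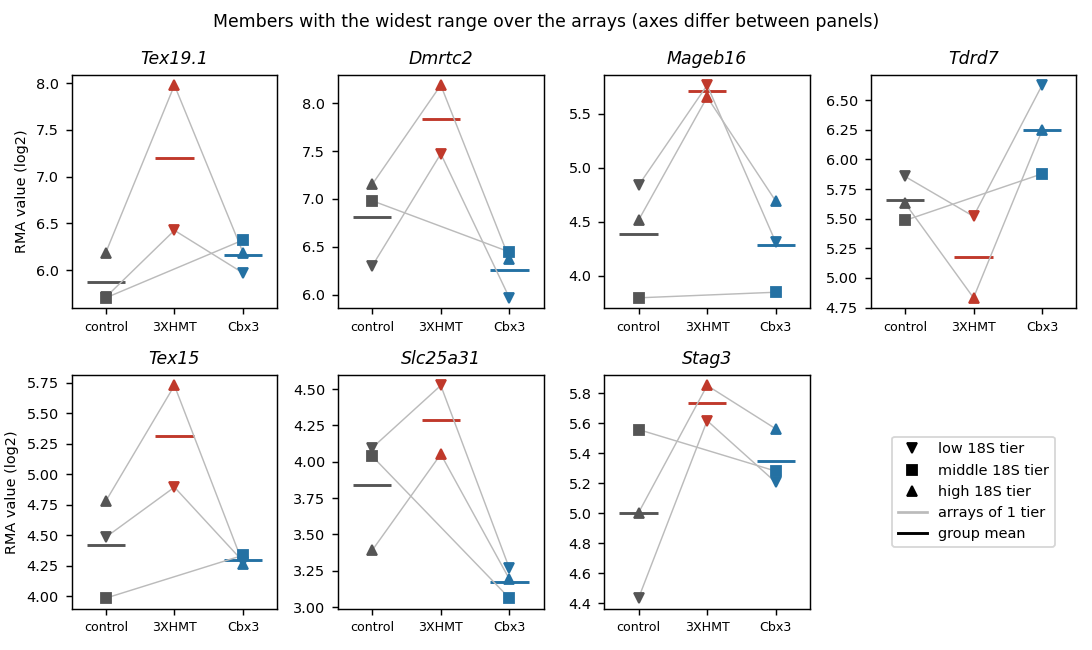
RMA value (log2, vertical axes, which differ between panels) of the 7 members whose range over 8 arrays exceeded 1, by group, with marker shape for the 18S tier, grey lines joining arrays of a tier and bars for group means. Within tiers, the lines of Dmrtc2 and Mageb16 rise from control to 3XHMT by 0.93 to 1.17, and those of Tdrd7 from control to Cbx3 rise by 0.39 to 0.77.

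By role, the members that moved were scattered. At their brightest probe sets, none of the 3 RNA-binding proteins measured (Dazl, Ddx4 and Dnd1) differed from control by more than 0.19 on the log2 scale with either siRNA. The dimmer probe set of Dazl differed by 0.14 in 3XHMT and 0.29 in Cbx3 cells. The 6 synaptonemal complex genes differed by at most 0.20. Of the 12 genes of the piRNA pathway and germ granules, 9 had less and 3 more signal in 3XHMT arrays at their brightest probe sets, from -0.48 for Tdrd7 to 1.33 for Tex19.1. Of all 18193 genes, 8796 had less. Dimmer probe sets had more signal for Tdrd7 (0.03) and Rnf17 (0.28, 0.08 and 0.09, against -0.12 at its brightest), and less for Asz1 (-0.05) and Piwil4 (-0.06). The Piwi genes Piwil1, Piwil2 and Piwil4 differed from control by -0.03, 0.14 and -0.07 in 3XHMT and by 0.05, -0.03 and -0.23 in Cbx3 cells (limma adjusted p of 0.831 to 1.00). Of the genes of break formation and recombination, Spo11, which makes the breaks, differed by 0.14 and -0.02, and the recombinase gene Dmc1 by -0.03 and 0.01. Stra8, which starts meiosis in response to retinoic acid, differed by -0.07 and 0.05.

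The differences were also tallied by the letters in the promoters, without a test and over members that are mostly dim. Among 34 measured genes with a window, the 15 with an E-box had a median difference of -0.03 in 3XHMT cells, with 6 higher, and the 19 without it 0.01, with 10 higher. For the E2F core the medians were 0.01 over the 16 genes with it, 9 of them higher, and -0.03 over the 18 without it, 7 of them higher. In Cbx3 cells the medians were 0.05 with an E-box (8 of 15 higher) and 0.00 without (10 of 19). They were -0.02 with the E2F core (7 of 16 higher) and 0.01 without (11 of 18). Among the printed windows, Dmrtc2 and Tex19.1 hold an E2F core, Slc25a31 and Stag3 both strings, and Mageb16 neither. The windows of Tdrd7, which were not printed, hold neither string.

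Other germline genes were read from a list of 83, of which 63 were measured and 50 lay below the median of all genes in control. By limma 0 passed against control with either siRNA, with 4 higher at an unadjusted p under 0.05 in 3XHMT cells, and 1 higher and 1 lower in Cbx3 cells. Of all genes, 5.27% and 9.56% reached that p in the same comparisons. Ddx25, a helicase of round spermatids, stood at 6.5, 6.41 and 6.62 in control, 7.36 and 8.0 in 3XHMT, and 6.60, 6.65 and 6.53 in Cbx3 arrays. The 3XHMT arrays stood above all others, 2.25-fold over control (limma adjusted p = 0.0653; 0.0114 when blocked by tier) and 2.12-fold over Cbx3 (adjusted p = 0.0313). Gtsf1, a piRNA factor, differed by 0.62 ± 0.15 (SE) in 3XHMT cells (adjusted p = 0.325; 0.112 with the block). Pld6, a mitochondrial factor of piRNA processing, fell in Cbx3 cells with the block (1.79-fold; adjusted p = 0.311; 0.00162 with the block). Between 3XHMT and Cbx3 cells the block called 6 of the 63: Ddx25, Pld6, Mei4 and Ccnb1ip1 higher, Tfap2c and Ddx43 lower in 3XHMT cells. That share is near the 9.12% of all genes called in that fit (4.69% higher and 4.43% lower).

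Of the machinery known to silence germline promoters, 29 of 30 listed genes were measured, among them the siRNA targets. Cbx3 is read in this list at a dim probe set that carries its symbol alone (82.9% of control in Cbx3 arrays), not at the bright shared one that stood at 42.8%. By limma 0 passed against control (4 higher and 2 lower at an unadjusted p under 0.05 in 3XHMT, 3 lower in Cbx3 cells). Of all genes, 5.27% and 9.56% reached that p in the same comparisons. E2f6, Mga, Max, L3mbtl2 and Pcgf6, subunits of the E2F6 complex, had adjusted p of 0.541 to 1.00 against control, and of 0.173 to 0.920 with the block. E2f6 lay wholly below control in 3XHMT (-0.29 ± 0.13 (SE)) and Cbx3 arrays (-0.25 ± 0.11), as did 7.1% and 6.78% of all genes. L3mbtl2 lay wholly above control in both (0.25 ± 0.12 and 0.15 ± 0.10), as did 9.28% and 7.52% of all genes. Mga, Max and Pcgf6 overlapped control in both. With the block, in the fit over genes, Setdb1 fell and Morc1, a factor of transposon silencing in germ cells, rose in 3XHMT cells (adjusted p = 0.0295 and 0.0246), and Rnf2, a Polycomb ubiquitin ligase, and Morc1 fell in Cbx3 cells (0.0186 and 0.0487). That fit called 1.76% of all genes in 3XHMT and 6.59% in Cbx3 cells. Between the knockdowns Morc1 was 7.74-fold and the deacetylase gene Hdac2 1.6-fold higher in 3XHMT cells (limma adjusted p = 0.0299 and 0.0363, where 1.51% of all genes were called).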

How the data were processed

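Expression was measured on 8 arrays. The deposited values are log2 expression per probe set, which the authors computed by RMA (per the submitters' processing notes), with version and settings not given in the sources used here. RMA quantile-normalizes the arrays, which removes a shift shared by most genes. Array medians lay between 5.87 and 5.90, and the number of arrays limits the precision.

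Each gene was read at the brightest of its probe sets with 1 symbol in the platform annotation, 64 control probe sets aside, which gave 18193 genes. Group means were compared by limma 3.58.1 under R 4.3.3 (moderated, two-sided, 5 residual degrees of freedom, 3 with the tier as a block), with Benjamini-Hochberg adjustment over all genes and a threshold of 0.05. The adjusted p of the siRNA targets come from the same model over all probe sets. The unblocked fit over genes was tried on simulated data for 3XHMT against control. Those data had independent noise for each gene and array and no tiers, so they do not bear on the blocked calls. The tiers were taken from the widest gaps of the 18S control. Deviations from group means correlated by 0.57, 0.59 and 0.74 between control and Cbx3 arrays of 1 replicate number, which are also of 1 tier. Between control and 3XHMT arrays they correlated by 0.11 and -0.56 within replicate numbers, and by 0.56 and 0.53 within tiers. With 2 arrays in the 3XHMT group, the deviations of 3XHMT 1 mirror those of 3XHMT 2 (correlation -1). The -0.56 (control 2 with 3XHMT 2) is thus the 0.56 (control 2 with 3XHMT 1) with its sign turned, and the 2 values are not separate evidence. The labels state no pairing. Values on every array are given for members past the threshold in any comparison with or without the block, the 6 members with the lowest p per comparison and the 4 brightest; Ddx4 and Dazl are named for their role, and of the other lists the genes past the threshold or with the lowest p, besides the E2F6 complex, named for its role. The members, lists, tiers and tests were chosen with earlier results of these data known. Alternatives were another probe set, normalization, filter, set of arrays or variance model, each array left out, and a block. Promoter windows were matched by symbol.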

Additional observations from a re-analysis of the deposited data

How the results depend on the processing

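The number of germline genes past the threshold depended on the block more than on the other choices tried. Against control it was 0 with either siRNA, and 3 with the tier as a block in each. With the replicate number as a block over all arrays it was 1 for 3XHMT (Mageb16, adjusted p = 0.0442 by limma) and 0 for Cbx3. It was 3 for Cbx3 in a fit of the control and Cbx3 arrays alone, blocked by replicate number, which was added after the data were seen. Between 3XHMT and Cbx3 it was 1, and 6 with the tier block, 4 with the replicate block, 2 with these groups alone or with trend and robust settings, and 0 with second probe sets or without dim genes, where 1 member (Syce2) was left to test. Leaving out 1 array gave 0 to 1, 0 to 0 and 0 to 1 for the 3 comparisons in this order. With the tier block, as added after the data were seen, it gave 1 to 3, 0 to 3 and 4 to 6. For the other germline genes, 1 passed in any comparison, 6 with the tier block, 3 with the replicate block, 2 with second probe sets or without unspecific probe sets, 0 without dim genes, and 0 to 2 (3 to 8 with the tier block) without 1 array. For the silencing machinery these counts were 2, 6, 5, 1 with second probe sets or the compared groups alone, 0 without unspecific probe sets, and 0 to 2 (1 to 7). The difference of Tdrd7 turned at its second probe set, to -0.11 for Cbx3 against control and 0.14 for 3XHMT against Cbx3. Cyclic loess left each of these 5 counts as it was. The cause of these changes was not tested. Signal near background limits most members.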
